A study of Homo sapiens with 60 samples.

Results

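Zizyphi Semen is the dried seed of sour jujube, used in East Asian medicine. Its ethanol extract was given to HT29, a human colorectal adenocarcinoma cell line, at 500 µg/mL (high dose), 100 µg/mL (medium dose) and 20 µg/mL (low dose), and messenger RNA was sequenced after 24 h. The members are the 9 libraries that the labels give this extract, 3 at each dose, of 60 libraries in the series. The vehicle had 3 libraries; their labels give DMSO at 0.1%, the series description gives 2%, and this conflict could not be settled. No DMSO percentage is known for the extract libraries. The ethanol extract of Longan Arillus, the flesh of the longan fruit, had 3 libraries at each of the same 3 doses and was the closest comparison. Nothing in the labels says whether the 3 libraries of a dose came from separate cultures, so each p-value measures only the spread between these libraries, which may be technical. All libraries come from 1 cell line, so they do not stand for other colon cells.

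Plant extracts carry aromatic compounds that intestinal cells meet as foreign chemicals. The aryl hydrocarbon receptor (AHR) is a transcription factor that binds such ligands and raises enzymes that oxidise them or their aldehyde products, among them CYP1A1, CYP1B1 and ALDH3A1, and TIPARP, which feeds back on the receptor. NRF2 is a transcription factor released by electrophiles, and it raises glutathione synthesis and reductases such as GCLC and AKR1B10. Selenoproteins are enzymes with selenocysteine in their active site, and several of them, such as GPX1, remove peroxides.

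The 9 libraries held 19495803 to 33169449 expected counts, within the 18161720 to 35128963 of the whole series. Markers of colorectal epithelium were present in all 9, but at very unlike levels. KRT8 lay between 6567 and 7163 CPM (counts scaled to the size of the library, here without TMM factors) and EPCAM between 486 and 515 CPM. CDX1 lay near 1 CPM, GPA33 at 2.1 to 3.5, TFF3 at 2.9 to 4.9, CDX2 at 4.1 to 5.6 and CEACAM5 at 5.5 to 8.9 CPM. Of the markers of other cell types, HLA-DRA, TYROBP, CDH5, KDR, COL1A2 and POSTN were at 0 in all 9 libraries, and none passed the 3.62 CPM of CD14 except LYZ, at 1331 to 1443 CPM, and SERPINA1, at 302 to 356 CPM. The first principal components took 19.3%, 14.9% and 14.0% of the variance. They were led by 1 library each (medium dose replicate 1, high dose replicate 1 and low dose replicate 2) and did not order the libraries by dose. No pair of libraries of a dose differed by so little that it could be 1 library deposited again: the mean chi-square per gene ran from 3.29 to 6.69, where sampling noise alone gives about 1.

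Few genes were called in the trend or between the high and low dose, and all of them changed by less than 2-fold. The trend test asked for each gene whether its level had a slope over the 5-fold steps of dose, and called genes at a Benjamini-Hochberg adjusted p under 0.05 in edgeR's quasi-likelihood test. It called 22 of 15440 genes (0.142%), of which 5 rose and 17 fell. High against low dose, which is about 2 times the slope and so no separate support, called 34 genes (0.22%), of which 12 rose and 22 fell. All 22 genes of the trend were among the 34, and all 22 had the medium dose mean between the means of the other doses. The trend test favours genes with that order, because a medium dose off the line adds to the spread, so the order is no separate support. The 12 that rose were 13.3% to 30.1% higher at the high dose, and the 22 that fell changed by -12.6% to -49.3%. In all 34 the high libraries did not overlap the low ones, which held for 14.67% of all genes tested.

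The counts rested on each of the libraries at the ends of the dose range. The trend called 7, 9 and 10 genes without high dose replicate 1, 2 and 3, and 12, 14 and 9 without low dose replicate 1, 2 and 3, against 38 without medium dose replicate 1. High against low dose called 11, 16 and 17 genes without a high dose replicate and 14, 16 and 14 without a low dose replicate. For 10 of the 34 genes the call held in all 9 fits that left out 1 library: ANKRD12, CENPE, GOLGA4, AKAP9, EIF5B, SELENOW, AKR1B10, ADGRF1, ALDH3A1 and CYP1B1. For the other 24 it held in 2 (TXNIP, EPHB6, GPX1 and GCLC) to 6 (CENPF) of the 9 fits. The trend call held in all 9 fits for ANKRD12, CENPE, GOLGA4, AKAP9, SELENOW and AKR1B10. It held in 7 for EIF5B and ADGRF1 and in 4 for CYP1B1. For the other genes of the trend it held in 1 (GCLC) to 5 (PRLR, ALDH1A3 and NOX1). Of the 10, a joint fit of the 54 libraries of all replicated groups lost ANKRD12 (adjusted p = 0.82), EIF5B (adjusted p = 1), SELENOW (adjusted p = 1), AKR1B10 (adjusted p = 0.45) and ADGRF1 (adjusted p = 0.56) in edgeR's test, and a fit of 52 of them also lost EIF5B (adjusted p = 0.32).

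**Figure D1:**
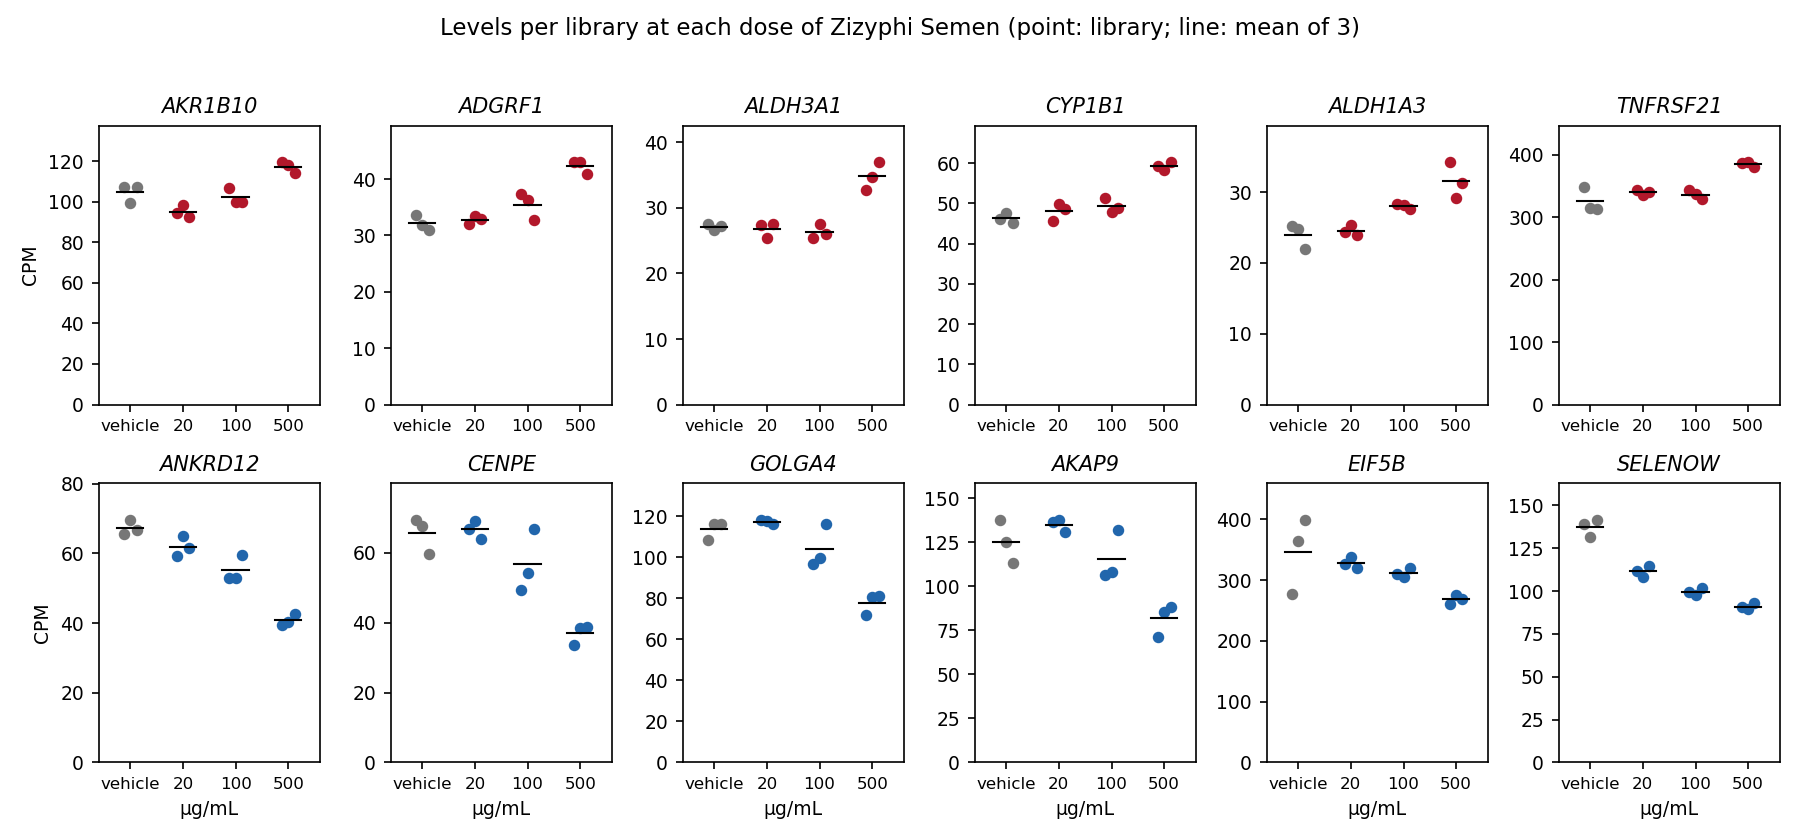
Level in CPM (y axis, from 0) in each library (points) for the vehicle and the 3 doses in µg/mL (x axis), with the mean of 3 libraries as a line, for the 6 rising (red) and 6 falling (blue) genes with the smallest p between the high and low dose. At 500 µg/mL all 3 points of each gene lie outside the range of the 20 µg/mL points; SELENOW is also below the vehicle at every dose.

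Of 12 tested targets of the aryl hydrocarbon receptor, 4 rose from the low to the high dose (0.0777% of all genes tested did). CYP1B1, an AHR-induced monooxygenase, stood at 59.4, 58.3 and 60.3 CPM in the high dose libraries, 51.3, 47.8 and 48.9 in the medium, 45.6, 49.99 and 48.6 in the low and 46.0, 47.7 and 45.2 in the vehicle libraries. The high dose libraries were above all 9 others, which ran together from 45.2 to 51.3 CPM. The difference from the low dose was 0.31 ± 0.04 on the log2 scale (estimate ± SE, adjusted p = 0.0057), a rise of 23.6%. ALDH3A1, which oxidises aldehydes, had the same shape. It was at 32.8, 34.8 and 37.0 CPM at the high dose and between 25.4 and 27.6 CPM in the 9 other libraries. Its log2 difference from the low dose was 0.38 ± 0.05 (adjusted p = 0.0057), and 0.40 from the medium dose (adjusted p = 0.013), so that the straight-line trend, at 0.19 ± 0.04 per step, missed the threshold (adjusted p = 0.082).

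ALDH1A3, which makes retinoic acid from retinal, rose in steps. Its levels were 34.2, 29.1 and 31.3 CPM at the high dose, 28.3, 28.2 and 27.6 in the medium, 24.3, 25.4 and 24.0 in the low dose and 25.2, 24.7 and 21.9 with vehicle. No dose overlapped another, and the low dose overlapped the vehicle. The slope of ALDH1A3 was 0.18 ± 0.03 log2 per 5-fold step (adjusted p = 0.014). TIPARP, an ADP-ribosyltransferase that limits AHR activity, was at 96.5, 96.1 and 89.7 CPM at the high dose and at 77.3 to 83.7 CPM at the lower doses. Its log2 difference between high and low dose was 0.24 ± 0.04 (adjusted p = 0.025). CYP1A1, the best known AHR target, was scarce in HT29, at 1.19, 1.00 and 1.03 CPM at the high dose, 0.86, 0.55 and 0.72 in the medium dose and 0.50, 0.34 and 0.60 in the low dose. Its high dose libraries were above the others, yet the slope of 0.56 ± 0.13 missed the threshold (adjusted p = 0.22). Of the 12 tested genes of the AHR list, 2 were called in the trend and 4 in high against low dose, all higher. The shares called higher over all genes were 0.0324% in the trend and 0.0777% in high against low dose. In the list 11 of 12 slopes were positive, with a median of 0.052 against 0.0 over all genes. AHR itself had a slope of -0.01 ± 0.02 and its repressor AHRR one of 0.03 ± 0.05, neither called.

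ALDH1A3, called in the trend, and TIPARP, called in high against low dose, had promoter entries, which are shown for their letters alone. Below are the 250 bases before the annotated start of ALDH1A3 and of TIPARP (the first of 3 starts listed), from RefSeq on GRCh38.p14, with each GCGTG, the core letters of the AHR response element, in capitals (CACGC where it lies on the other strand).
ALDH1A3, chr15:100879581-100879830, plus strand: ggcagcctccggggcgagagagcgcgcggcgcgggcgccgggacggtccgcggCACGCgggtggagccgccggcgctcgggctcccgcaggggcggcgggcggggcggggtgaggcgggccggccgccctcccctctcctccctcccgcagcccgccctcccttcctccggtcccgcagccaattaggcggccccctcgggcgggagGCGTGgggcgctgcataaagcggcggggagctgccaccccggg
TIPARP, chr3:156674340-156674589, plus strand: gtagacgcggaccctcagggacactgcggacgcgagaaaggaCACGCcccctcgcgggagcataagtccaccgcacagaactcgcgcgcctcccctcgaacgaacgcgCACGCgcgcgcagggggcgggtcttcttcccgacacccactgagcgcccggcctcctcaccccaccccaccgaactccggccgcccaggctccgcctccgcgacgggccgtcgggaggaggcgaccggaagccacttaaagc
The ALDH1A3 window held 2 matches, at -197 and -43 from the start, and the TIPARP window 2, at -208 and -142; the other TIPARP windows held none. Of all 35116 RefSeq windows of 250 bases, 32.2% held the letters on either strand. Of the 14 genes of the list 11 had an entry, with 19 windows, of which 10 held a match. CYP1B1 and ALDH3A1 had no entry. A match says only that the letters are there.

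The glutathione and reductase genes that NRF2 controls had mostly positive slopes, with 2 called. AKR1B10, an aldo-keto reductase that clears reactive aldehydes and retinal, stood at 120, 118 and 114 CPM at the high dose, 107, 99.8 and 100 in the medium, 94.3, 98.4 and 92.4 in the low dose and 107, 99.5 and 107 with vehicle. The order over dose was complete between groups, but the low dose libraries lay below the vehicle. The slope of AKR1B10 was 0.15 ± 0.02 per step (adjusted p = 0.0033), whereas the high dose exceeded the vehicle by 0.16 ± 0.05 (adjusted p = 0.11). AKR1B10 is close in sequence to other aldo-keto reductases, among which the authors' counting may split reads. GCLC, the catalytic subunit of the first enzyme of glutathione synthesis, was at 99.1, 92.3 and 95.4 CPM at the high dose, 87.4, 86.8 and 88.1 in the medium, 85.0, 82.8 and 82.7 in the low dose and 74.3, 85.0 and 76.7 with vehicle. The groups of GCLC did not overlap between doses, and its slope was 0.10 ± 0.02 (adjusted p = 0.0496). Of the 30 genes of the NRF2 list 26 had a positive slope, with a median of 0.06, and 14 of them had an unadjusted p under 0.05. Of all 15440 genes tested, 7785 had a positive slope, 501 of them at an unadjusted p under 0.05, and 0.0324% were called higher. Among those not called, SLC7A11, the cystine importer, had a slope of 0.09 ± 0.02 (adjusted p = 0.29), TXNRD1, thioredoxin reductase, 0.08 ± 0.02 (adjusted p = 0.16), NQO1 0.06 ± 0.02 (adjusted p = 0.30) and HMOX1, heme oxygenase, 0.08 ± 0.04 (adjusted p = 0.69). The list and the AHR list share NQO1.

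Other genes of varied roles rose as well. ADGRF1, an adhesion G protein-coupled receptor, was at 43.0, 43.0 and 40.9 CPM at the high dose, 37.3, 36.3 and 32.8 in the medium, 32.1, 33.4 and 32.9 in the low dose and 33.7, 31.9 and 31.1 with vehicle. The high libraries of ADGRF1 stood apart from all others, the slope was 0.18 ± 0.03 (adjusted p = 0.0069), and the log2 difference from the vehicle was 0.39 ± 0.05 (adjusted p = 0.0036). TXNIP, an arrestin that binds thioredoxin and curbs glucose uptake, was at 62.2, 60.1 and 60.8 CPM at the high dose and between 50.4 and 54.7 CPM in the other 9 libraries. The high dose of TXNIP exceeded the low dose by 0.21 ± 0.04 (adjusted p = 0.025). TNFRSF21, a death receptor, was 0.18 ± 0.03 higher (adjusted p = 0.025), the serine protease gene KLK10 0.26 ± 0.05 (adjusted p = 0.025), the kinase-dead Eph receptor gene EPHB6 0.19 ± 0.04 (adjusted p = 0.037) and UGT1A1, which glucuronidates bilirubin and drugs, 0.24 ± 0.04 (adjusted p = 0.037). UGT1A1 shares exons with the other UGT1A genes, so its count is uncertain. KLK10 overlapped the vehicle, whose libraries held 142, 122 and 146 CPM against 146, 162 and 160 at the high dose.

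**Figure D2:**
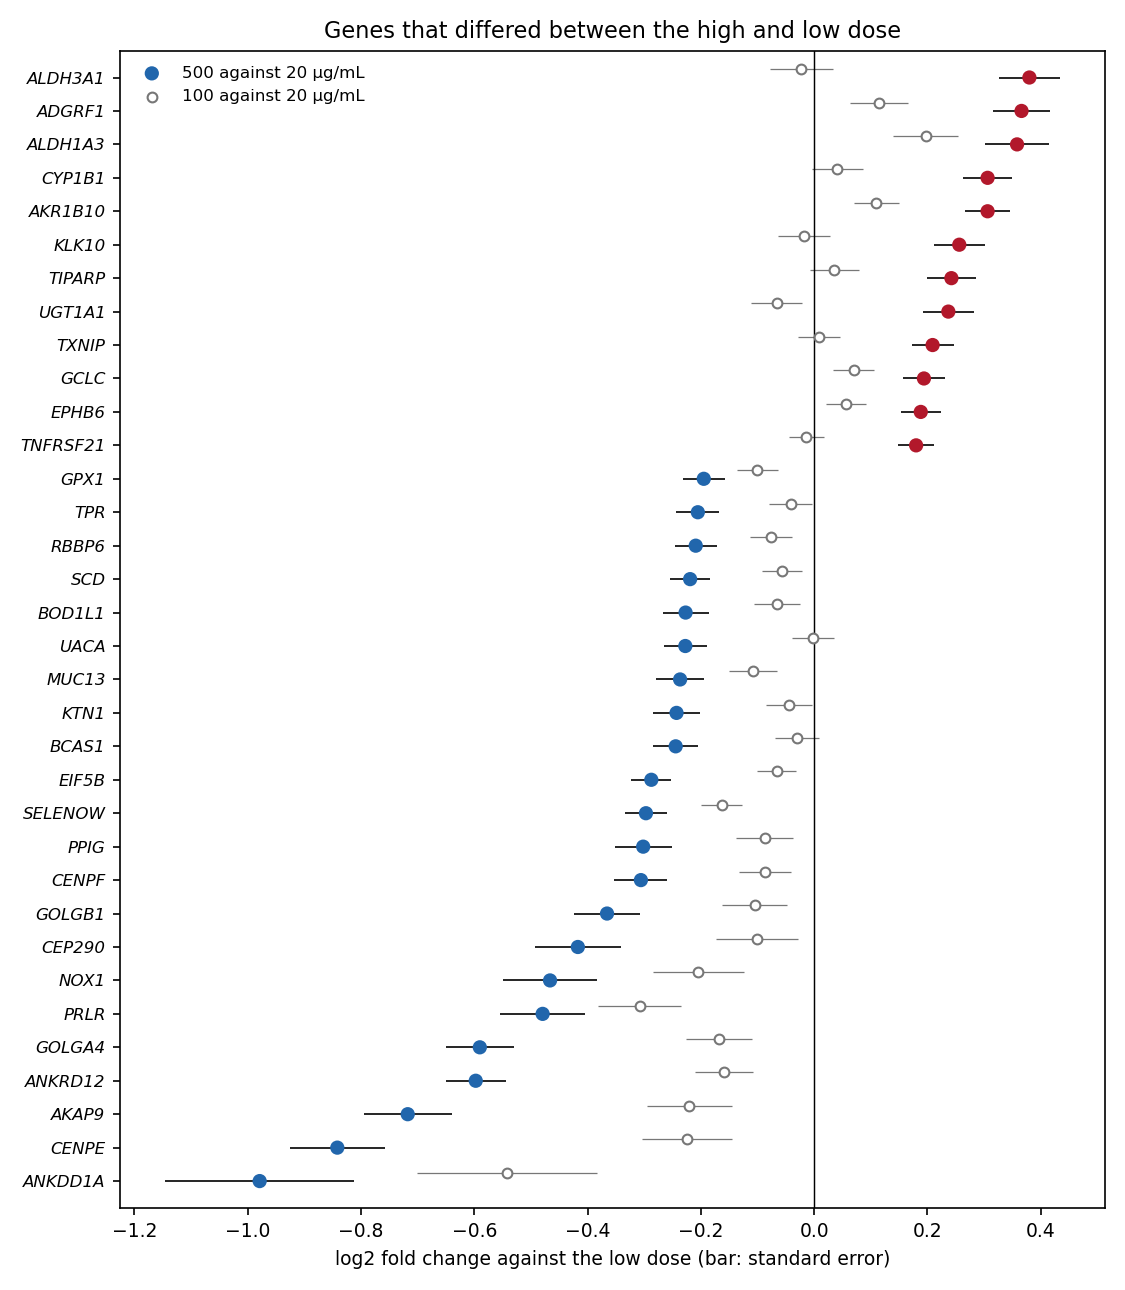
Log2 fold change against the low dose (x axis, bars are standard errors) of the 34 genes called between high and low dose (y axis): filled points for 500 against 20 µg/mL, open points for 100 against 20 µg/mL. The filled points run from -0.98 (ANKDD1A) to 0.38 (ALDH3A1), and for 11 of 12 rising and 18 of 22 falling genes the open point lies nearer to 0 than to the filled one.

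The largest group that fell at the high dose was of genes for very long proteins, mostly coiled-coil proteins of the Golgi, centrosome, kinetochore and nuclear pore. ANKRD12 and BOD1L1, which have other roles, were counted with them. ANKRD12, an ankyrin repeat protein that binds nuclear receptor coactivators, was at 39.4, 40.4 and 42.6 CPM at the high dose, 52.97, 53.1 and 59.4 in the medium, 59.2, 65.0 and 61.4 in the low dose and 65.6, 69.7 and 66.7 with vehicle. The high dose libraries lay below all others, and ANKRD12 fell by 33.9% from the low dose, a log2 difference of -0.60 ± 0.05 (adjusted p = 0.00011). CENPE, the kinesin that moves chromosomes to the spindle equator, was at 33.7, 38.6 and 38.8 CPM at the high dose, 49.4, 54.2 and 66.8 in the medium, 67.0, 69.2 and 64.2 in the low dose and 69.5, 67.7 and 59.7 with vehicle. CENPE fell by 44.2% from low to high dose (adjusted p = 0.00024). Medium dose replicate 3 stood at the level of the low dose for CENPE, while the other medium libraries stood between. GOLGA4, a golgin that tethers vesicles at the trans-Golgi, was at 71.8, 80.5 and 81.1 CPM at the high dose, 96.8, 99.7 and 116 in the medium, 118, 118 and 116 in the low dose and 108, 116 and 116 with vehicle. AKAP9, which anchors protein kinase A and nucleates microtubules at the Golgi, was at 71.2, 85.6 and 88.4 CPM at the high dose, 107, 108 and 132 in the medium, 137, 138 and 131 in the low dose and 138, 125 and 113 with vehicle. Both had their high dose libraries below all others; GOLGA4 fell by 33.6% (adjusted p = 0.00024) and AKAP9 fell by 39.2% (adjusted p = 0.00043) from low to high dose.

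Smaller falls were found in related genes. GOLGB1 (giantin, of the Golgi rim) fell by 22.4% from low to high dose (adjusted p = 0.014), CENPF (a kinetochore protein) fell by 19.1% (adjusted p = 0.012) and CEP290 (of the ciliary transition zone) fell by 25.1% (adjusted p = 0.028). KTN1 (kinectin, a kinesin anchor of the endoplasmic reticulum) fell by 15.5% (adjusted p = 0.021), TPR (of the nuclear pore basket) fell by 13.3% (adjusted p = 0.032), BOD1L1 (which protects replication forks) fell by 14.6% (adjusted p = 0.027) and UACA fell by 14.6% (adjusted p = 0.019). CENPF and GOLGB1 had their high dose libraries below the low dose but near the vehicle, with GOLGB1 at 137, 156 and 156 CPM at the high dose against 169, 167 and 165 with vehicle. Of the 40 genes of the list of long coiled-coil and centrosome proteins, 7 fell in the trend, 11 in high against low dose, and none rose. The shares that fell over all genes were 0.11% in the trend and 0.142% in high against low dose. In the list 37 of 40 slopes were negative and the median slope was -0.073. The list was drawn up with earlier results of these data known, so its direction is no independent evidence. In the centred log2 levels of each library, the median of the 39 list members at or above 1 CPM on average was -0.122, -0.06 and -0.063 at the high dose, 0.015, -0.026 and 0.072 in the medium dose, 0.068, 0.085 and 0.066 in the low dose and -0.101, 0.075 and 0.027 with vehicle. The low dose libraries lay close together, while vehicle replicate 1 stood as low as the high dose.

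The coding sequences of the falling genes are printed because their composition sets them apart from other genes. Each line holds the 75 bases of coding sequence, in frame and within 1 exon, with the most A in that gene, from GENCODE release 29 on GRCh38, for the 5 falling and the 2 rising genes with the smallest p between high and low dose among genes with such a window; lysine and glutamate codons (AAA, AAG, GAA and GAG) are in capitals.
ANKRD12, chr18:9254684-9254758, plus strand: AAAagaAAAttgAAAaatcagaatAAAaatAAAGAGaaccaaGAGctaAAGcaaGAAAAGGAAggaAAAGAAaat
CENPE, chr4:103176936-103177010, minus strand: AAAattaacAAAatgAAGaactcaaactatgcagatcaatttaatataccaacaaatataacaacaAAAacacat
GOLGA4, chr3:37324734-37324808, plus strand: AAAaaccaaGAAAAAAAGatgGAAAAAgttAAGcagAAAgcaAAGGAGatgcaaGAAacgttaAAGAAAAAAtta
AKAP9, chr7:92000875-92000949, plus strand: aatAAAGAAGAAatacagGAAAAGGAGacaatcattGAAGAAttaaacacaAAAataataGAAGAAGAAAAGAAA
EIF5B, chr2:99363653-99363727, plus strand: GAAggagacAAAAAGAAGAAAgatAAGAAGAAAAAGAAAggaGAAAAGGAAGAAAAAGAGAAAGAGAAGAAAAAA
AKR1B10, chr7:134530700-134530774, plus strand: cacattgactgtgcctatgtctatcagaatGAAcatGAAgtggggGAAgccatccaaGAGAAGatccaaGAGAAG
ADGRF1, chr6:47010067-47010141, minus strand: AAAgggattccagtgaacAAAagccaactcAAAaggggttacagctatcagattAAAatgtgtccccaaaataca
In the 5 falling genes the windows held 57.3% to 69.3% A, with 4 (CENPE) to 21 (EIF5B) lysine or glutamate codons of 25. In AKR1B10 and ADGRF1 they held 36.0% and 42.7% A, with 7 and 4 such codons. The windows were chosen for their A, and a longer coding sequence offers more windows to choose from. The 5 falling genes had 3660 to 11730 coding bases, AKR1B10 948 and ADGRF1 2730. Windows of other genes were not compared, so the windows alone do not set these genes apart.

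Over whole coding sequences most, but not all, of the falling genes were long and rich in A. The median coding length of the 22 that fell was 4160 bases with 37.4% A and 22.8% lysine or glutamate codons, against 1614 bases, 24.9% and 11.8% for the 12 that rose and 1413 bases, 25.6% and 12.7% for all 12401 coding genes tested. Among the 22, 14 were in the top 10% of genes for A and 13 in the top 10% for length, and none of the 12 that rose was in either. Both properties occurred together: of the 161 genes in the top 10% for both, 13 (8.07%) fell and none rose, against 0 of 1081 genes that were long only, 1 of 1080 (0.09%) that were A-rich only, and 8 of 10079 (0.08%) with neither. Of the 161, 89.4% had a negative slope, with a median of -0.045. In centred log2 levels, the 156 long and A-rich genes averaging 1 CPM or more had medians of -0.052, -0.018 and -0.024 at the high dose. The medians were 0.012, -0.035 and 0.068 in the medium, 0.056, 0.077 and 0.052 in the low dose and -0.122, 0.057 and 0.013 with vehicle. Vehicle replicate 1 was thus below every high dose library, and medium dose replicate 2 lay among them. Across all 12401 genes Spearman's rho of the slope was -0.186 with the share of A and -0.10 with coding length. With the share of G and C together it was 0.186, the same size as with A. Of the 22 that fell, 11 were in the lowest 10% of genes for G and C. The parts of A, of G and C and of length were not tested apart. Genes share libraries and base composition and are not replicates. These properties were looked at after the values had been seen. Long genes as a whole (1154 genes averaging 1 CPM or more) had medians of 0.006, 0.037 and 0.028 in the high dose libraries, 0.04, -0.031 and 0.042 in the medium and 0.048, 0.043 and 0.041 in the low dose libraries. The high libraries lay below the low ones, and the medium ones overlapped both. The vehicle libraries had medians of 0.016, -0.051 and -0.061, so that vehicle replicates 2 and 3 lay below every high dose library.

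**Figure D3:**
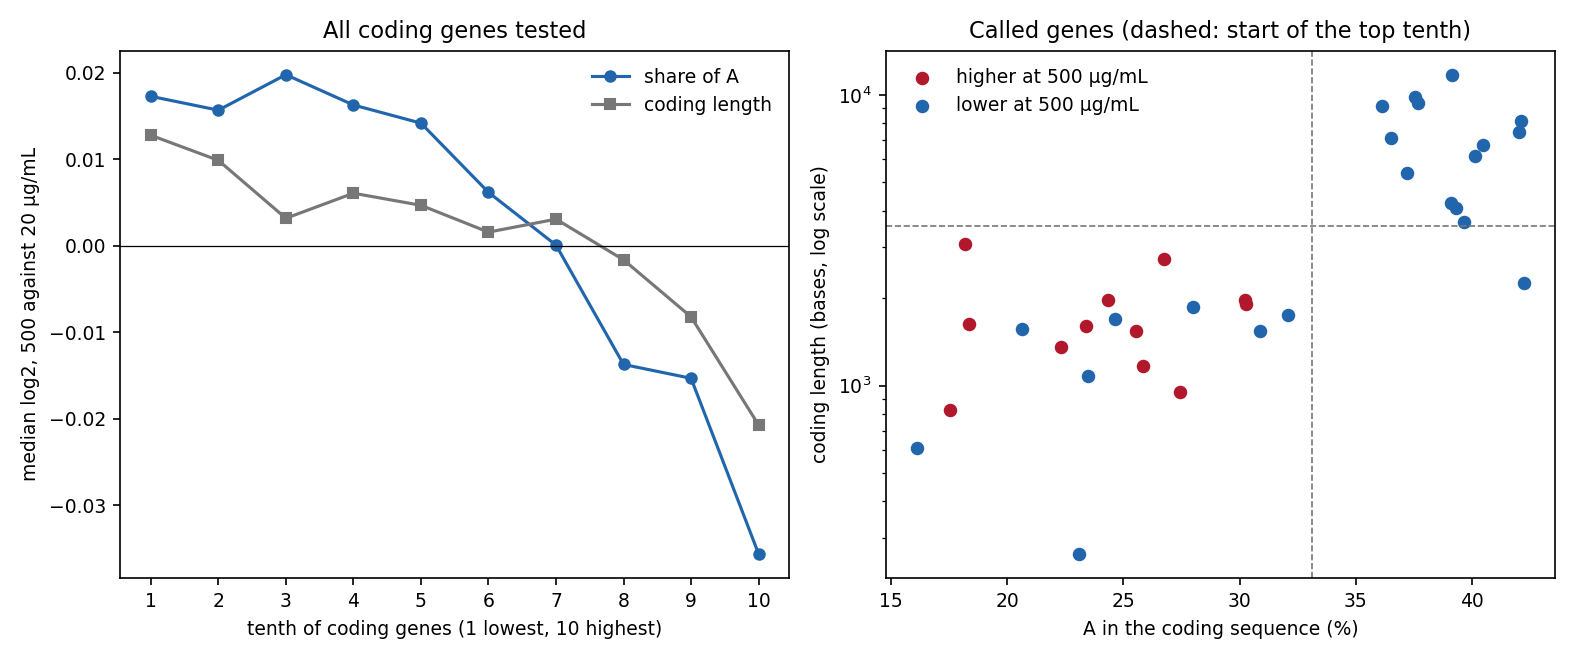
Left, median log2 difference between 500 and 20 µg/mL (y axis) by decile of coding genes (x axis) ordered by share of A (circles) or coding length (squares): the lowest point is the top 10% for A, at -0.0356. Right, share of A (x axis, %) and coding length (y axis, bases, log scale) of the 34 called genes, blue if lower and red if higher at 500 µg/mL, with dashed lines at the start of each top 10%: 13 of 22 falling genes lie in the upper right field and no rising gene does.

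EIF5B, PPIG and RBBP6 also have A-rich coding sequences. EIF5B, the GTPase that joins the ribosomal subunits, was at 261, 275 and 269 CPM at the high dose, 311, 305 and 320 in the medium, 327, 337 and 319 in the low dose and 277, 365 and 399 with vehicle. The high dose libraries of EIF5B lay below all 9 others, although vehicle replicate 1 came near them, and EIF5B fell by 18.1% from low to high dose (adjusted p = 0.0015). PPIG, a cyclophilin of splicing speckles, fell by 18.9% (adjusted p = 0.019), and RBBP6, an RB1-binding protein of polyadenylation, fell by 13.5% (adjusted p = 0.025).

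Of the selenoprotein genes, SELENOW and GPX1 fell over dose. SELENOW, a small thioredoxin-like selenoprotein whose messenger RNA is among the most sensitive to selenium supply, was at 90.4, 89.2 and 93.2 CPM at the high dose, 99.3, 97.8 and 102 in the medium, 112, 108 and 115 in the low dose and 139, 132 and 142 with vehicle. None of the 4 groups overlapped, and the levels stepped down from the vehicle through the low and medium to the high dose. The slope of SELENOW was -0.15 ± 0.02 (adjusted p = 0.0013), and its difference from the vehicle was -0.31 ± 0.04 at the low dose (adjusted p = 0.0078), -0.47 ± 0.04 at the medium (adjusted p = 0.00012) and -0.60 ± 0.04 at the high dose (adjusted p = 3.7e-06). GPX1, the main cytosolic glutathione peroxidase, was at 114, 122 and 120 CPM at the high dose, 127, 128 and 124 in the medium, 134, 134 and 139 in the low dose and 131, 144 and 153 with vehicle. The doses of GPX1 did not overlap, and the slope was -0.10 ± 0.02 (adjusted p = 0.042). GENCODE 29 marks GPX1 as a polymorphic pseudogene, a class that the rule for naming genes passed over, so it was named after its values were seen. SELENOH, a nuclear redox protein, had a slope of -0.11 ± 0.03 (adjusted p = 0.24) and was below the vehicle at the high dose by -0.43 ± 0.06 (adjusted p = 0.0027). Of 20 tested genes of a selenoprotein list, added after these values were seen, 2 fell in the trend and none rose, with a median slope of -0.002. The share of all genes tested that fell in the trend was 0.11%. SELENOO and TXNRD1 had positive slopes of 0.10 ± 0.02 (adjusted p = 0.19) and 0.08 ± 0.02 (adjusted p = 0.16), neither called.

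The other genes that fell belong to the epithelial surface, to lipid synthesis and to signalling. SCD, which puts the double bond into stearoyl chains, was at 1120, 1169 and 1135 CPM at the high dose, 1319, 1221 and 1283 in the medium, 1349, 1310 and 1327 in the low dose and 1303, 1189 and 1181 with vehicle. The high dose libraries of SCD lay below all others, but the vehicle reached down close to them; SCD fell by 14.1% from low to high dose (adjusted p = 0.015). It was the 1 gene called of 15 tested on the fatty acid synthesis list (0.142% of all genes fell from low to high dose). The median slope of that list was -0.027. NOX1, the superoxide-making oxidase of colon epithelium, was at 11.1, 11.2 and 13.5 CPM at the high dose, 13.6, 14.7 and 14.6 in the medium, 17.97, 15.1 and 16.4 in the low dose and 16.1, 13.7 and 16.3 with vehicle. NOX1 had a slope of -0.23 ± 0.04 (adjusted p = 0.029), and its medium dose overlapped the vehicle. MUC13, a transmembrane mucin, was at 90.1, 94.6 and 94.5 CPM at the high dose, 98.7, 100 and 106 in the medium, 114, 112 and 104 in the low dose and 103, 103 and 106 with vehicle. The slope of MUC13 was -0.12 ± 0.02 (adjusted p = 0.029), and BCAS1, expressed in goblet cells, was lower by -0.24 ± 0.04 between low and high dose (adjusted p = 0.015). Of 24 tested genes of the goblet list these 2 fell in high against low dose, where 0.142% of all genes fell. In the list 20 of 24 slopes were negative (median -0.044), while the secreted mucin MUC2 had a slope of -0.03 ± 0.06 (adjusted p = 0.95). PRLR, the prolactin receptor, was at 16.0, 16.6 and 14.5 CPM at the high dose, 19.4, 16.0 and 17.9 in the medium, 21.4, 20.7 and 23.2 in the low dose and 16.0, 17.1 and 17.1 with vehicle. The slope of PRLR was -0.24 ± 0.04 (adjusted p = 0.014), but the vehicle lay with the high dose, so that it was the low dose that stood apart. ANKDD1A, an ankyrin repeat and death domain protein, had the steepest slope of the called genes, -0.49 ± 0.08 (adjusted p = 0.021), at low levels of 1.75, 1.90 and 1.78 CPM at the high dose, 3.07, 2.08 and 2.32 in the medium, 3.601, 3.17 and 3.90 in the low dose and 3.18, 3.00 and 3.36 with vehicle.

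**Figure D4:**
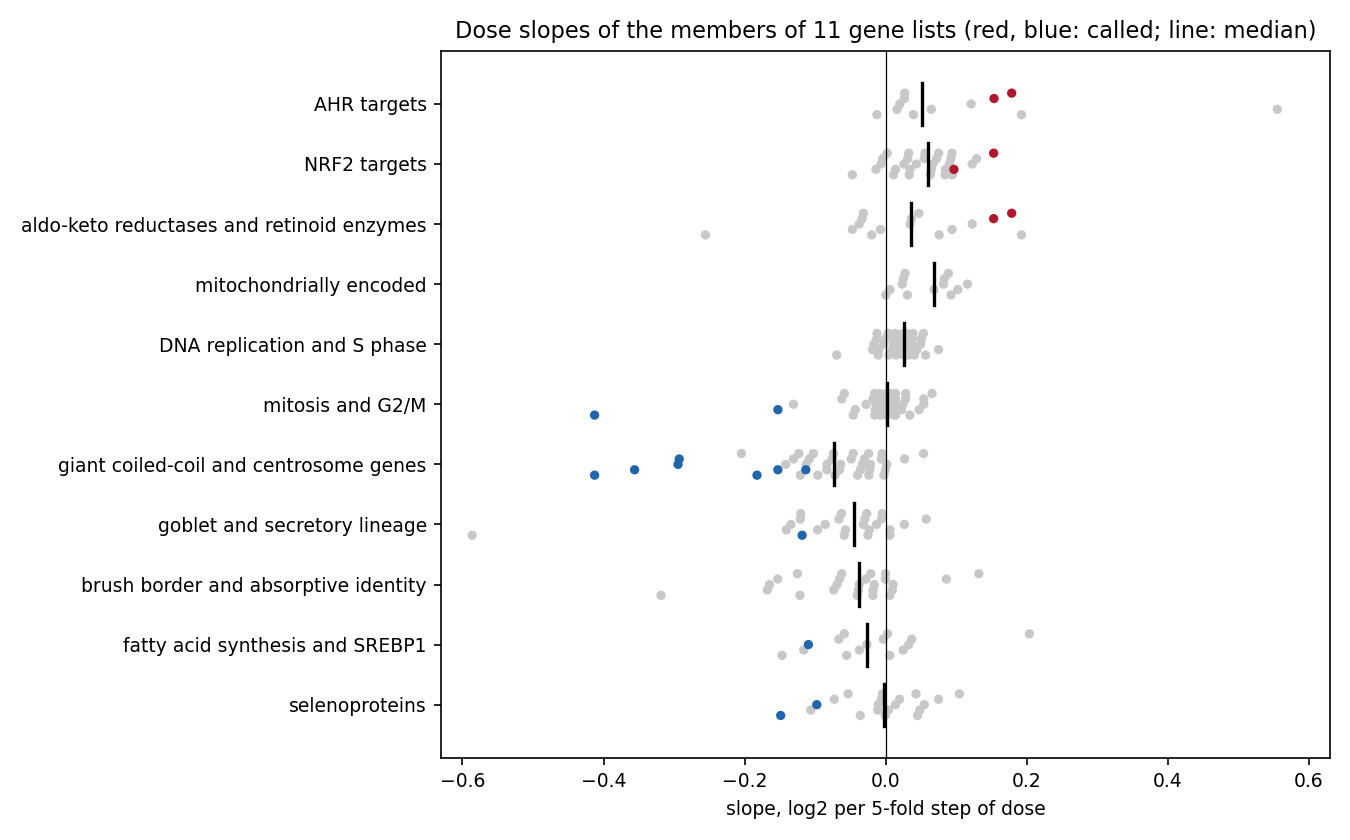
Slope in log2 per 5-fold step of dose (x axis) of each tested member (points) of 11 gene lists (y axis), red if called higher, blue if called lower, grey if not called, with the median as a line. The AHR and NRF2 lists have medians of 0.052 and 0.06, the coiled-coil list -0.073, and the mitosis list 0.001 with CENPE and CENPF apart from the rest.

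Most pathways showed no called gene over dose. In the mitosis list 2 of 40 fell in the trend (0.11% of all genes did), CENPE and CENPF, which are also long coiled-coil genes. The median slope of the list was 0.001. CCNB1 had a slope of 0.03 ± 0.02, TOP2A -0.01 ± 0.02 and PLK1 0.05 ± 0.02, none called. In the S phase list 0 of 42 were called, with 34 positive slopes and a median of 0.026. All 13 mitochondrially encoded genes had slopes of 0.0 or above (median 0.069), and none was called; their median log2 difference was 0.256 between high and medium and -0.147 between medium and low. In the interferon list 0 of 40 were called, 30 with a negative slope (median -0.036), and in the brush border list 0 of 25 were called, 19 negative (median -0.037). The lists of ATF4 targets, heat shock chaperones, cholesterol synthesis, p53 targets and NF-kB had 0 called genes, with median slopes of -0.003, -0.006, -0.003, -0.011 and 0.012. Counting the unadjusted p under 0.05, these 5 lists held 3, 0, 2, 5 and 3 genes, against 1136 of all 15440 genes tested.

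The upper and the lower step of dose were also tested apart. High against medium dose called 14 genes (0.0907%), of which 8 rose and 6 fell (3, 0 and 1 without high dose replicate 1, 2 and 3, 4 without medium dose replicate 3, 7 and 6 without low dose replicate 1 and 3, and 90 without medium dose replicate 2), and medium against low dose called 0 genes (0%), with 799 at an unadjusted p under 0.05, 0 called by DESeq2 and 18 called without medium dose replicate 2. Among the 34 genes the upper step was the larger one in 11 of 12 rising and 18 of 22 falling genes. ALDH1A3, SELENOW, GPX1, PRLR and ANKDD1A were the exceptions, with SELENOW at -0.13 in the upper and -0.16 in the lower step. A test of whether the medium dose lay off the line between high and low called 0 genes (0%), with 1017 at an unadjusted p under 0.05 and 2 called by DESeq2 (56 by edgeR without medium dose replicate 2), so that the difference between the steps was not called for any gene by the main test. Among the genes called in the upper step and not between high and low, LGR5, the R-spondin receptor of intestinal stem cells, was at 37.0, 36.7 and 36.6 CPM at the high dose, 31.8, 29.9 and 30.7 in the medium, 31.0, 33.1 and 31.1 in the low dose and 29.2, 29.5 and 28.9 with vehicle, a difference of 0.26 from the medium dose (adjusted p = 0.045). SLC38A5, an amino acid transporter, was 0.23 higher than at the medium dose (adjusted p = 0.045). Of the 14 genes called in the upper step, 1, not named here, changed by 2-fold or more, with a log2 difference of 1.8 in size. LGR5 and SLC38A5 were named after their values were seen.

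Against the vehicle the high dose differed in 122 of 15738 genes (0.775%; 47 higher, 75 lower or 0.477%), the medium dose in 12 (0.0762%; 4 higher, 8 lower or 0.0508%) and the low dose in 48 (0.305%; 13 higher or 0.0826%, 35 lower). The libraries of the vehicle and of the extract carry names that begin differently, and the extract and whatever that part of the name stands for cannot be told apart. The counts hung on single vehicle libraries. Without vehicle replicate 1 they were 1184 for the high dose against vehicle, 497 for the medium dose against vehicle and 813 for the low dose against vehicle, without replicate 2 they were 78, 34 and 52, and without replicate 3 they were 36, 1 and 0. Leaving out 1 extract library gave 20 to 105 calls for the high dose (20 without high dose replicate 3), 1 to 17 for the medium (1 without medium dose replicate 1) and 0 to 46 for the low dose (0 without low dose replicate 1). Of the 34 genes of the dose comparison, 8 of the 12 that rose and 8 of the 22 that fell were called against the vehicle at the high dose; both comparisons use the same high dose libraries, so these counts are no independent evidence. The largest of the dose genes there were CENPE at -0.83 ± 0.09 (adjusted p = 0.00058), ANKRD12 at -0.73 ± 0.06 (adjusted p = 6.2e-06) and AKAP9 at -0.62 ± 0.09 (adjusted p = 0.0041). Among genes not called in the trend, CLK1, a kinase of splicing factors, was at 44.1, 46.4 and 46.7 CPM at the high dose. The vehicle held 32.2, 34.9 and 34.6 CPM of CLK1, a difference of 0.43 ± 0.07 (adjusted p = 0.017). DHRS3, a retinal reductase, was above the vehicle by 0.32 ± 0.05 (adjusted p = 0.011), and SLC7A11 by 0.42 ± 0.08 (adjusted p = 0.025).

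Some heat shock genes were lower than with vehicle and were not called in the trend. DNAJB1, a co-chaperone of HSP70, was at 82.7, 83.3 and 86.9 CPM at the high dose, 84.0, 88.5 and 89.1 in the medium, 84.8, 80.5 and 89.5 in the low dose and 106, 110 and 115 with vehicle. The vehicle libraries of DNAJB1 lay above all 9 others, and the difference was -0.39 ± 0.05 at the high dose (adjusted p = 0.0014) and -0.38 ± 0.05 at the low dose (adjusted p = 0.0078), with a slope of -0.01 ± 0.02. Of 16 tested heat shock genes 5 were called lower than the vehicle at the high dose (share over all genes 0.477%) and 5 at the low dose (share over all genes 0.222%), with median differences of -0.222 and -0.207, against -0.005 and -0.003 over all genes. Without vehicle replicate 3, or without low dose replicate 1, no gene was called at the low dose. The Longan Arillus libraries stood at the same level as the Zizyphi Semen ones for DNAJB1, between 82.5 and 86.0 CPM at their high dose. Differences from the vehicle also moved with coding length, with a Spearman's rho across 12401 genes of 0.272 at the high and 0.372 at the low dose; the part of length in any 1 gene's difference was not tested.

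Longan Arillus was tested at the same doses, and its slope differed from that of Zizyphi Semen for 8 of the 22 falling genes and 1 of the 12 rising ones. The difference of the slopes was called for 12 of 15918 genes (0.0754%), 2 with the higher and 10 (0.0628%) with the lower slope under Zizyphi Semen, and 9 of the 12 were among the 34 dose genes. It was called for 4, 7 and 5 genes without Zizyphi high dose replicate 1, 2 and 3, for 5, 7 and 6 without low dose replicate 1, 2 and 3, for 7 without Longan high dose replicate 2 and for 4 without Longan low dose replicate 2. CENPE was at 58.6, 64.2 and 62.8 CPM in the Longan high dose libraries and 58.2, 59.2 and 56.8 in the low ones, a slope of 0.04 ± 0.05, and the Zizyphi slope was lower by -0.46 ± 0.07 (adjusted p = 0.0068). GOLGA4, with 110, 110 and 116 CPM at the Longan high dose and 113, 108 and 97.1 at the low dose, gave a slope difference of -0.33 ± 0.05 (adjusted p = 0.011). AKAP9 gave one of -0.36 ± 0.07 (adjusted p = 0.036). GOLGB1 and CENPF rose over the Longan dose range and fell over the Zizyphi one, with slope differences of -0.31 ± 0.04 and -0.26 ± 0.04 (adjusted p = 0.0068 for each). TXNIP was the called gene of the opposite kind: it was at 46.7, 45.6 and 44.3 CPM at the Longan high dose and 49.5, 51.7 and 50.9 at its low dose, so that the Zizyphi slope was higher by 0.19 ± 0.03 (adjusted p = 0.035).

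The low dose libraries of Longan Arillus bear on these slopes. Long genes had medians of -0.18, -0.109 and -0.056 in those 3 libraries, against -0.031 to 0.048 in the 9 Zizyphi libraries, and 1323 genes (8.31%) differed between the low doses of the extracts (800 or 5.03% higher under Zizyphi Semen), against 11 (0.0691%) between the high doses. Across 12401 coding genes Spearman's rho of coding length was -0.447 with the Zizyphi minus Longan slope and -0.10 with the Zizyphi slope. The median Longan slope was 0.074 in genes that were long only and 0.056 in those both long and A-rich. The part of the Longan low dose libraries, or of coding length, in the slope differences was not tested. The difference between the high doses is taken without their levels, although they share its filter, scaling and estimate of the spread. Of its 11 genes, chosen as an alternative after the data were seen, 10 (0.0628%) were lower under Zizyphi Semen, 1 (0.00628%) was higher and 8 were also called for the slope. CENPE was lower by -0.73 ± 0.09 (adjusted p = 0.00041), GOLGA4 by -0.52 ± 0.07 (adjusted p = 0.0018), ANKRD12 by -0.53 ± 0.09 (adjusted p = 0.012) and SELENOW by -0.27 ± 0.04 (adjusted p = 0.0021), and TXNIP was higher by 0.42 ± 0.04 (adjusted p = 5.1e-06). SELENOW also fell over the Longan doses, where its slope was called. The Longan slope of ANKRD12 was negative too, but not called. For SELENOW and ANKRD12 the difference of the slopes was not called. ABCG1, a cholesterol exporter and the 1 gene of the 11 outside the 34, was at 1.29, 1.22 and 1.31 CPM at the Zizyphi high dose against 2.96, 3.42 and 2.65 at the Longan high dose (-1.25 ± 0.17, adjusted p = 0.0021). Of the 22 falling genes 9 were called in this comparison; they were chosen with the same Zizyphi high dose libraries, so the count is no independent evidence. The coiled-coil list had medians of 0.054, 0.039 and 0.078 in the 3 Longan high dose libraries.

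The rising AHR targets were not told apart from Longan Arillus by these tests. CYP1B1 was at 70.3, 65.9 and 70.0 CPM at the Longan high dose and 45.4, 44.1 and 51.4 at its low dose, a slope of 0.27 ± 0.03 against 0.15 ± 0.03 for Zizyphi Semen; the difference was -0.12 ± 0.05 (adjusted p = 0.31). For ALDH1A3 the slopes were 0.25 ± 0.03 and 0.18 ± 0.03, with a difference of -0.07 ± 0.04 (adjusted p = 0.54), for TIPARP the difference was -0.03 ± 0.04 (adjusted p = 0.84) and for ADGRF1 -0.01 ± 0.04 (adjusted p = 0.93). Of the 12 rising genes 11 had a positive slope under Longan Arillus too, 5 of them called. Of the 22 falling genes 8 had a negative one, 1 of them called (SELENOW). The Longan trend called 333 genes (2.09%), of which 273 (1.72%) rose. A p above the threshold does not show that the extracts act alike on these genes.

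**Figure D5:**
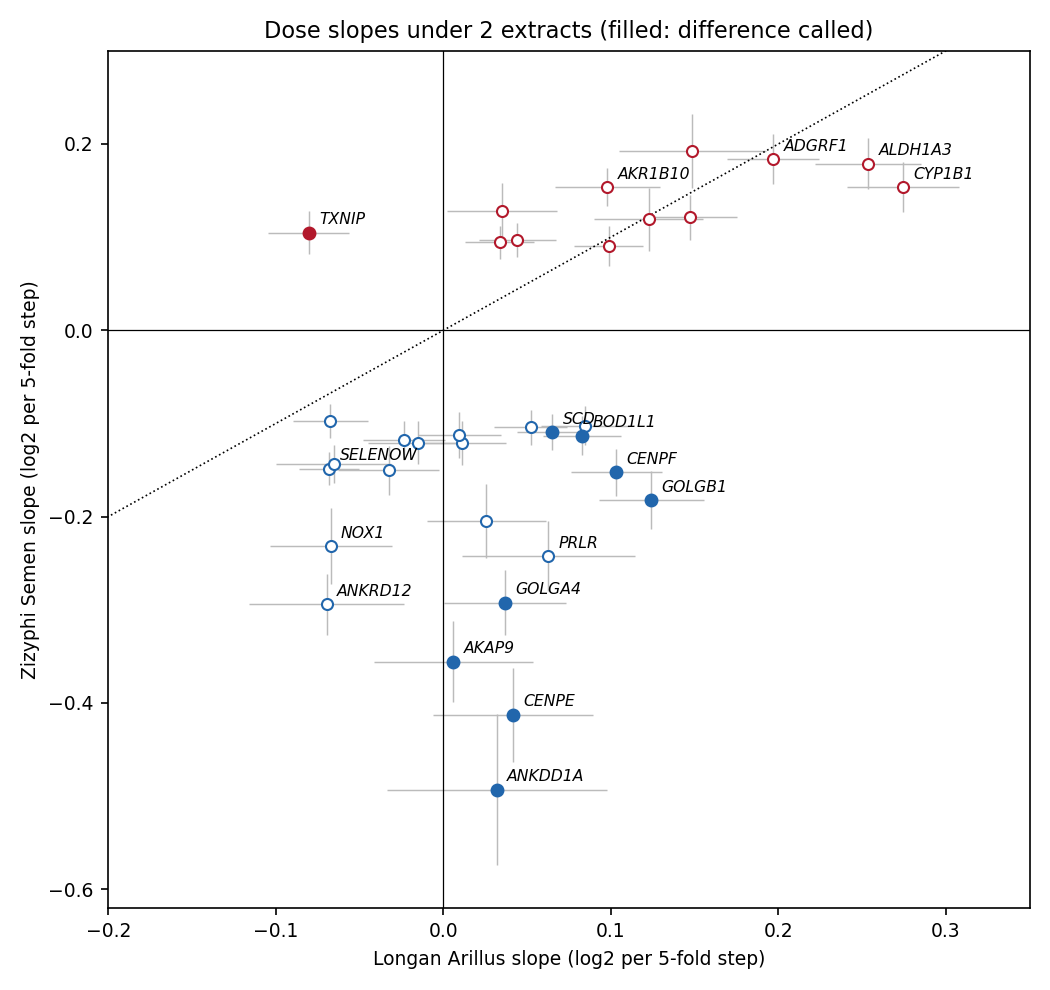
Slope in log2 per 5-fold step of dose under Longan Arillus (x axis) and Zizyphi Semen (y axis) of the 34 dose genes, red if rising and blue if falling, with standard errors as bars; filled points differ between the extracts at an adjusted p under 0.05 and the dotted line marks equal slopes. Rising genes lie near the line except TXNIP, and the steepest falling genes, such as CENPE at -0.41 against 0.04, lie far below it.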

How the data were processed

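Messenger RNA of HT29 cells was sequenced from 9 Zizyphi Semen, 3 vehicle and 9 Longan Arillus libraries. The authors deposited 1 table of expected counts, estimated per gene by RSEM and not normalized, with 60675 Ensembl genes and 60 libraries. The submitters' processing notes name Trim Galore 0.6.5, STAR 2.7.3a, RSEM 1.3.3 and GRCh38; annotation release and strand setting are not given in the sources used here. Symbols and coding sequences came from GENCODE release 29 (57055 genes matched). Expected counts were rounded, filtered by filterByExpr, scaled by TMM and fitted in edgeR 4.0.16 (quasi-likelihood, R 4.3.3), with Benjamini-Hochberg adjustment over all genes tested. The trend coded the doses as equal 5-fold steps. Dose comparisons used the 9 libraries, vehicle comparisons 12 and the Longan comparison 18; biological coefficients of variation were 3.93% in the trend fit, 3.78% between doses, 5.1% with vehicle and 4.9% with Longan. CPM are on 1 TMM scale over these 21 libraries; errors of log2 differences are standard errors. The steps were tested on simulated data. Named genes were the called genes, 12 by slope each way, up to 6 each way for Longan and the vehicle, and up to 4 per list, pseudogenes and clone names left out. Members, lists and alternatives were chosen with earlier results of these data known. Replicate numbers were not used to pair libraries. Deviations from the dose means correlated at -0.12 to 0.0755 for same-numbered libraries and -0.115 to 0.141 for the others. These values cannot show whether the numbers mark shared cultures.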

Additional observations from a re-analysis of the deposited data

Results flagged for a closer look

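A difference of slope over dose between Zizyphi Semen and Longan Arillus (log2 per 5-fold step) was called by edgeR's quasi-likelihood test for 12 genes. The falling genes CENPE (-0.46), AKAP9 (-0.36), GOLGA4 (-0.33), GOLGB1 (-0.31), CENPF (-0.26), BOD1L1 (-0.20), SCD (-0.17) and ANKDD1A (-0.52) and the rising gene TXNIP (0.19) are described above. DST, a cytoskeletal linker, and ASPM, a spindle pole protein, were not called over the Zizyphi doses, where their slopes were -0.08 ± 0.02 and -0.06 ± 0.02, and their differences of -0.28 and -0.25 go with Longan slopes of 0.20 and 0.19. DST was at 89.5, 97.8 and 111 CPM in the Longan low dose libraries against 131 to 135 CPM at the Zizyphi low dose, and ASPM at 142, 145 and 158 against 195 to 200. The gene ENSG00000279364 had a difference of 10.22, a fitted value that rests on groups at 0 and is no bound: its levels were 0.155, 0 and 1.54 CPM at the Zizyphi high dose, 0 in all 3 low dose libraries, 0 in all 3 Longan high dose libraries and 12.5, 5.58 and 2.09 CPM at the Longan low dose.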

How the results depend on the processing

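Each alternative refitted all genes that passed its filter. Values of single genes were kept only for genes called over dose and others picked by the naming rule, and none of these values changed direction. Of 1396 such gene values 1033 kept their side of the threshold, 349 lost the call and 14 gained it, and 273 of the losses came with 1 library left out. RLE normalization kept every count within 1.5 times. Counts with 1 library left out ran from 7 to 38 (trend over dose), 11 to 45 (high against low dose), 0 to 56 (departure from a straight line over dose), 0 to 90 (high against medium dose), 0 to 18 (medium against low dose), 20 to 1184 (high dose against vehicle), 1 to 497 (medium dose against vehicle), 0 to 813 (low dose against vehicle) and 4 to 16 (slope of Zizyphi Semen minus slope of Longan Arillus). In the same order, and with no filter on low counts, they were 178, 187, 255, 317, 170, 700, 436, 558 and 138. DESeq2 gave 44 for the trend, 2 for the departure, 41 for high against medium, 298 (149 higher), 81 and 189 (74 higher) against the vehicle, and 52 for Longan Arillus (4 higher). A filter of a mean of 5 CPM gave 35 for the trend and 264, 25 and 112 against the vehicle. Without the 3 libraries that lead the principal components, an alternative chosen after seeing the data, the trend called 10 genes. All 54 libraries of the replicated groups in 1 fit gave 9 for high against low and 27, 5 and 6 against the vehicle; without the 2 libraries of other extracts that stand apart from their groups, high against low gave 42. A linear dose gave 32 for the trend, 16 of them shared. The cause of these shifts was not tested. With the replicate number as a block the trend called 14 genes, the departure 3, high against low 31 and the difference from Longan Arillus 10; the labels do not say that the numbers pair libraries. Depth limits the scarcest genes, such as CYP1A1 and ANKDD1A.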

Other observations

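MT-ND1, a mitochondrially encoded subunit of complex I, was at 5753, 6539 and 6511 CPM in the high dose libraries, 4639, 5125 and 4481 in the medium, 5247, 6108 and 4659 in the low and 7184, 4765 and 7592 in the vehicle libraries, and its slope was 0.12 ± 0.05 (adjusted p = 0.68 in edgeR's quasi-likelihood test). Its low dose libraries overlapped both other doses. Of 75 cytosolic ribosomal protein genes, 8 were called lower than with vehicle at the high dose (0.477% of all genes were) and 7 at the low dose (0.222% of all genes), with median log2 differences of -0.158 and -0.169 over all 75. Without vehicle replicate 3, or without low dose replicate 1, 0 genes were called at the low dose. The ribosomal genes' median slope over dose was 0.009, with 0 called and 1 at an unadjusted p under 0.05. Short coding sequences as a class stood higher in vehicle replicates 2 and 3, with medians of 0.066 and 0.099, than in vehicle replicate 1, with -0.006, and the 9 Zizyphi libraries, with -0.056 to 0.028. The part of that difference in the ribosomal values was not tested.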
